A study of Mus musculus with 7 samples.

Results

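The VEGF and angiopoietin axis was followed through single cells of 7 mouse malignant peripheral nerve sheath tumors (MPNSTs). Its 10 genes, of 33696 in the feature list, were found by symbol and comprise the VEGF ligands Vegfa, Vegfb and Vegfc, the VEGF receptors Kdr and Flt1, the co-receptor Nrp1, the angiopoietins Angpt1 and Angpt2, and the TIE receptors Tek and Tie1. The tumors grew from JW23.3, a single male murine MPNST line mutant for Nf1 and Trp53, implanted under the skin of wildtype female C57/B6 mice aged 5 to 6 weeks. Animals entered the groups at random on day 7, and the grafts were removed on day 21. The irradiated group (n = 4) received 5 daily fractions of 2 Gy behind lead shielding, and the control group (n = 3) received none. Each library was 1 tumor, dissociated with papain and profiled with a 3′ droplet assay, in which each unique molecular identifier (UMI) stands for 1 captured transcript. Vessels, pericytes and macrophages in these grafts belong to the host, and the allograft of 1 line under the skin is the limit of the model.

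VEGF ligands bind receptor tyrosine kinases on endothelial cells, where Kdr carries most of the growth and permeability signal, Flt1 binds ligand tightly and can act as a decoy, and Nrp1 helps to present ligand. Vegfa is a classic target of hypoxia-inducible factors, and Vegfc is known above all for lymphatic growth through Flt4. Angpt1, made by perivascular and other mesenchymal cells, activates the endothelial receptor Tek and settles vessels, while Angpt2, stored by endothelial cells, mostly antagonizes it during remodeling, and Tie1 is the orphan partner of Tek.

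Endothelial genes are commonly driven by ETS factors, which recognize a GGAA core. The windows just upstream of the starts of 3 endothelial receptor genes are shown because the levels of these genes set the endothelial cells apart below. The sequences are from RefSeq on GRCm38.p6, 5′ to 3′ on the strand of the gene, with every GGAA or its reverse complement TTCC in capitals. RefSeq promoter windows were held for 8 of the 10 genes. Angpt1 and Angpt2 were the genes with no entry.
Kdr, chr5:75978459-75978705, minus strand: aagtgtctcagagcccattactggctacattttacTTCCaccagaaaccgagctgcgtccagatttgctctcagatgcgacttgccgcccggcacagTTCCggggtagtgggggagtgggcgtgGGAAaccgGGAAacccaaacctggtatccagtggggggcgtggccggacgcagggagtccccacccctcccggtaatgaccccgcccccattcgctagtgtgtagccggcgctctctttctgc
Flt1, chr5:147726012-147726261, minus strand: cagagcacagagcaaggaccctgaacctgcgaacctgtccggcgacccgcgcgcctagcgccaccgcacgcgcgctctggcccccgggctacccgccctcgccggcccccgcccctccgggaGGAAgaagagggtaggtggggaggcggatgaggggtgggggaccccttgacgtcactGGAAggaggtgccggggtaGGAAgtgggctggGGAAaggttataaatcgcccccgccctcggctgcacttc
Tek, chr4:94739039-94739288, plus strand: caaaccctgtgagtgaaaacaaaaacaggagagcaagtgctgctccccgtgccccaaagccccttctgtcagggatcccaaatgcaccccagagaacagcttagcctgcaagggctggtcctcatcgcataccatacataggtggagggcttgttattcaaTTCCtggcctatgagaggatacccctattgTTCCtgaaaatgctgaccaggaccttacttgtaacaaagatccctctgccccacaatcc
The Kdr and Flt1 windows each held 4 GGAA cores on both strands together, and the Tek window held 2. At least 1 such core was present in 93.4% of the 32851 promoter windows, at least 2 in 76.8% and at least 4 in 33.4%, so these matches describe the letters and mark no site. The hypoxia-response core ACGTG was absent from the first Vegfa window and present 1 time in the second, against 16.6% of all windows with at least 1. GCGTG was likewise absent from the first and present 1 time in the second, against 28.2%. These windows spanned 250 bases, and sequence farther upstream was not searched. In the gene annotation of GRCm38, Kdr lies on chromosome 5 from 75932827 to 75978458, Flt1 on chromosome 5 from 147561604 to 147726011, and Tek on chromosome 4 from 94739289 to 94874976.

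The libraries held 2859 to 8452 cells and 53496570 to 153044123 UMIs, with 39537 cells in all, of which 34297 were retained. The median cell had 6058.5 to 17930.5 UMIs, and any 2 libraries shared at most 0.397% of the barcodes of the smaller one. By cell number, depth, mitochondrial share and stress transcripts the libraries were grouped into technical set 1 (irradiated 1 with controls 2 and 3) and technical set 2 (irradiated 2, 3 and 4 with control 1). Cell number and median depth did not overlap between the sets. Mitochondrial share did, at 3.60 to 4.82% in set 1 and 3.13 to 4.46% in set 2. Stress transcripts also overlapped, at 0.218 to 0.422% and 0.145 to 0.356%. A share of 0.561 of the variation stayed within the sets, against 0.615 for the next best grouping. How distinct the sets are was not tested. Cells were assigned by gates on the number of markers detected, none of them a gene of the axis, which gave 483 endothelial-like, 186 pericyte-like, 11732 macrophage-like and 14412 tumor-like cells. All 13 endothelial, 13 pericyte and 15 macrophage markers were found in at least 25% of the cells of their own gate, as were 8 of 16 tumor markers, and Igf2 was at 0 in the tumor gate. Cdh5, Cldn5 and Robo4, defining endothelial markers, were at 0 in the pericyte gate. Levels are given as CPM, the UMIs of a gene over all UMIs of a class in a tumor on the usual CPM scale, which is a share of captured RNA and not a number of molecules per cell.

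Kdr, the main signaling receptor for VEGF, marked endothelial-like cells, although the gate did not use it. Its endothelial level was lowest at 349 CPM, 474 CPM at the median and 523 CPM at the highest of the 7 tumors, and no pericyte-like cell of any tumor held a Kdr UMI. Against a floor of 3 UMIs over all pericyte-like cells, the endothelial level was at least 240-fold higher. In tumor-like cells Kdr had 0 to 5 UMIs per tumor, and in edgeR the endothelial level was 13.16 higher on the log2 scale (SE 0.34, adjusted p = 1.7e-16). Macrophage-like cells held a small but counted amount, 0.936 CPM at the lowest, 2.93 CPM at the median and 6.03 CPM at the highest. This was 6.59 on the log2 scale above tumor-like cells (SE 0.36, edgeR adjusted p = 4.28e-12) and 6.57 below endothelial cells (SE 0.25, adjusted p = 2.46e-14). With every cell thinned to 2000 UMIs, Kdr was seen in 57.3% of 412 endothelial-like cells, in 0.673% of 10701 macrophage-like cells, in 0.014% of 14289 tumor-like cells, and in 1 of 1035 T/NK-like (T and natural killer) cells, which should lack it (0.0966%, 95% Wilson interval 0.0171 to 0.545%). The intervals of the macrophage-like share (0.535 to 0.846%) and of the T/NK-like share overlapped at one edge, at unthinned median depths of 6721.5 and 3357 UMIs, and before thinning Kdr was seen in 0.543 to 5.11% of macrophage-like and 0 to 0.568% of T/NK-like cells of a tumor. The 247 macrophage-like cells with a Kdr UMI carried 1.13 of 13 endothelial markers on average and the others 0.870, and Scrublet called 1.21% and 0.392% of them doublets, whose part in the Kdr level was not tested.

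Flt1, the high-affinity VEGF receptor, had a wider reach than Kdr. Its levels fell in the order endothelial, pericyte, tumor and macrophage, and every neighbor in that order differed. Endothelial levels were 729, 897 and 1143 CPM at the lowest, the median and the highest tumor. Pericyte-like cells had 134, 320 and 682 CPM, a log2 difference of 1.21 below endothelial (SE 0.19, edgeR adjusted p = 1.73e-05). The lowest value was that of irradiated 4, from 11 UMIs in 10 pericyte-like cells, which were left out of the fits between classes. Tumor-like cells had 42.0, 72.7 and 94.9 CPM, which was 2.37 on the log2 scale below pericyte-like cells (SE 0.20, adjusted p = 2.01e-10) and far from the 1.00 to 5.25 CPM of macrophage-like cells (log2 difference -4.23 for macrophage minus tumor, SE 0.21, adjusted p = 4.81e-16). The Flt1 ranges of the 4 classes over the 7 tumors did not overlap. Thinned to 2000 UMIs, 70.1% of endothelial-like, 36.0% of pericyte-like and 10.2% of tumor-like cells held Flt1, against 0.290% of T/NK-like and 0.654% of macrophage-like cells. Pericyte-like cells with a Flt1 UMI carried 2.45 endothelial markers and those without 2.04, and the whole endothelial list summed to 317 to 830 CPM in irradiated and 559 to 741 CPM in control pericyte-like cells, whose part was not tested. Counts of 3′ ends per gene do not part the soluble form of Flt1 from the receptor.

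Nrp1, the co-receptor, was the most widely spread gene of the axis. Its levels were 314, 328 and 524 CPM (lowest, median, highest) in endothelial-like cells, 197, 329 and 430 CPM in pericyte-like cells and 161, 207 and 302 CPM in macrophage-like cells. The endothelial minus pericyte difference was 0.20 (SE 0.17, edgeR adjusted p = 0.413) and did not pass. Pericyte minus macrophage was 0.05 (SE 0.17, adjusted p = 0.816), and was called when scaled without TMM (0.56, adjusted p = 0.00951). The endothelial minus macrophage difference of 0.26 (SE 0.15, adjusted p = 0.148) was called when scaled without TMM (0.78) and with DESeq2 size factors (0.45). Tumor-like cells had 73.0, 120 and 139 CPM, below the macrophage-like level by 1.36 on the log2 scale (SE 0.15, adjusted p = 1.53e-09). Even T/NK-like cells held 44.8 to 158 CPM, and after thinning 14.2% of them had a Nrp1 UMI, against 32.5% of macrophage-like and 44.2% of endothelial-like cells.

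The TIE receptors were endothelial receptors in these tumors too. Tek, the receptor for both angiopoietins, had 199, 249 and 338 CPM at the lowest, median and highest tumor in endothelial-like cells, and 1, 16 and 138 UMIs in all pericyte-like, macrophage-like and tumor-like cells. Its endothelial level was 9.55 above tumor-like (SE 0.19, edgeR adjusted p = 9.26e-26) and 10.11 above macrophage-like cells (SE 0.23, adjusted p = 3.1e-24) on the log2 scale. Tie1, its partner, had 123, 142 and 160 CPM in endothelial-like cells, and none of its UMIs fell in a pericyte-like or T/NK-like cell, which put the endothelial level at least 77.9-fold and at least 268-fold higher against floors of 3 UMIs. The fibroblast-like cells of a tumor held at most 37.0 CPM of Tek, from 15 UMIs in all. Macrophage-like cells of irradiated tumors gave 3, 1, 8 and 0 Tie1 UMIs and those of controls 1, 0 and 3. Of the 483 endothelial-like cells, 328 held both Kdr and Flt1 and 199 held both Tek and Tie1, while 45 held neither VEGF receptor and 109 neither TIE receptor. These counts move with depth, since the thinned cells held both VEGF receptors in 40.8% and both TIE receptors in 8.98%. Tek-positive, Tie1-negative cells numbered 117 and the reverse 58, which at this depth does not separate 2 kinds of cell.

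Of the 4 classes tested, Vegfa was highest in macrophage-like cells, in 5 of 7 tumors, with tumor-like cells higher in irradiated 2 and control 3. Its level there was 47.6, 112 and 169 CPM at the lowest, median and highest tumor, against 52.8, 76.0 and 115 CPM in tumor-like cells. The macrophage minus tumor difference was 0.83 on the log2 scale (SE 0.20, edgeR adjusted p = 0.000834), a call lost without TMM scaling (0.42, adjusted p = 0.0524, where the alternatives ran from 6.49e-05 to 0.0524). Pericyte-like cells followed at 3.52, 21.4 and 48.4 CPM and endothelial-like cells at 3.19, 8.87 and 21.3 CPM, both of the size of T/NK-like cells (3.36 to 12.8 CPM) or a little above and not told apart (-0.97 for endothelial minus pericyte, SE 0.60, adjusted p = 0.249). The few fibroblast-like cells had 40.9 to 222 CPM. After thinning, 14.2% of macrophage-like, 12.7% of tumor-like and 1.06% of T/NK-like cells held Vegfa.

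Vegfb, a ligand of Flt1, was highest in tumor-like cells at 34.4, 43.5 and 47.2 CPM, and macrophage-like cells had 14.8, 21.7 and 34.5 CPM (macrophage minus tumor -0.40 on the log2 scale, SE 0.13, edgeR adjusted p = 0.00586). Endothelial-like cells held 7.11 to 19.9 CPM and pericyte-like cells 0 to 28.1 CPM, with a difference of -0.68 between them (SE 0.36, adjusted p = 0.167). Vegfc had a different pattern from both. It was highest in endothelial-like cells at 71.1, 142 and 303 CPM, 1.26 on the log2 scale above the 38.4, 56.6 and 73.7 CPM of tumor-like cells (SE 0.23, edgeR adjusted p = 6.53e-05). Macrophage-like cells had 0.981 to 3.11 CPM of Vegfc and pericyte-like cells 4 UMIs in all.

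The angiopoietins were split between classes. Angpt1, the Tek agonist, had 56.2, 171 and 210 CPM at the lowest, median and highest tumor in pericyte-like cells and 64.9, 100 and 158 CPM in tumor-like cells, a log2 difference of 0.31 (SE 0.23, edgeR adjusted p = 0.293). Both were far above endothelial-like cells, which held 10 Angpt1 UMIs in all (pericyte -5.89 and tumor -5.58 for endothelial minus each, adjusted p = 6.28e-11 and 6.8e-12), and above macrophage-like cells (-5.82 for macrophage minus tumor, SE 0.24, adjusted p = 3.07e-17). Endothelial minus macrophage, at 0.24 (adjusted p = 0.786), depended on how cells were classed, from 2.61 with cluster classes (adjusted p = 6.59e-06) to -1.87 with a stricter gate (adjusted p = 0.104). Fibroblast-like cells had 177 to 449 CPM. The tumor marker list summed to 1362 to 1598 CPM in irradiated and 946 to 1431 CPM in control pericyte-like cells. In tumor-like cells it summed to 4817 to 6083 and 4943 to 5448 CPM. Its part in the pericyte-like Angpt1 level was not tested. Angpt2, the vessel-remodeling ligand, had 30.4, 111 and 512 CPM in endothelial-like cells and 12.2, 59.1 and 98.5 CPM in pericyte-like cells. That difference of 1.07 (SE 0.44) did not pass the threshold (edgeR adjusted p = 0.0754, and 0.0237 without control 2, where the alternatives ran from 0.0237 to 0.192). Tumor-like cells held 4.59 to 6.86 CPM of Angpt2, 3.34 below pericyte-like cells on the log2 scale (SE 0.50, adjusted p = 1.73e-05), and macrophage-like cells 1.20 to 3.96 CPM. The T/NK-like level of 1.36 to 7.12 CPM was of the same size as the tumor-like and macrophage-like levels, which are therefore not read as expression.

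**Figure D1:**
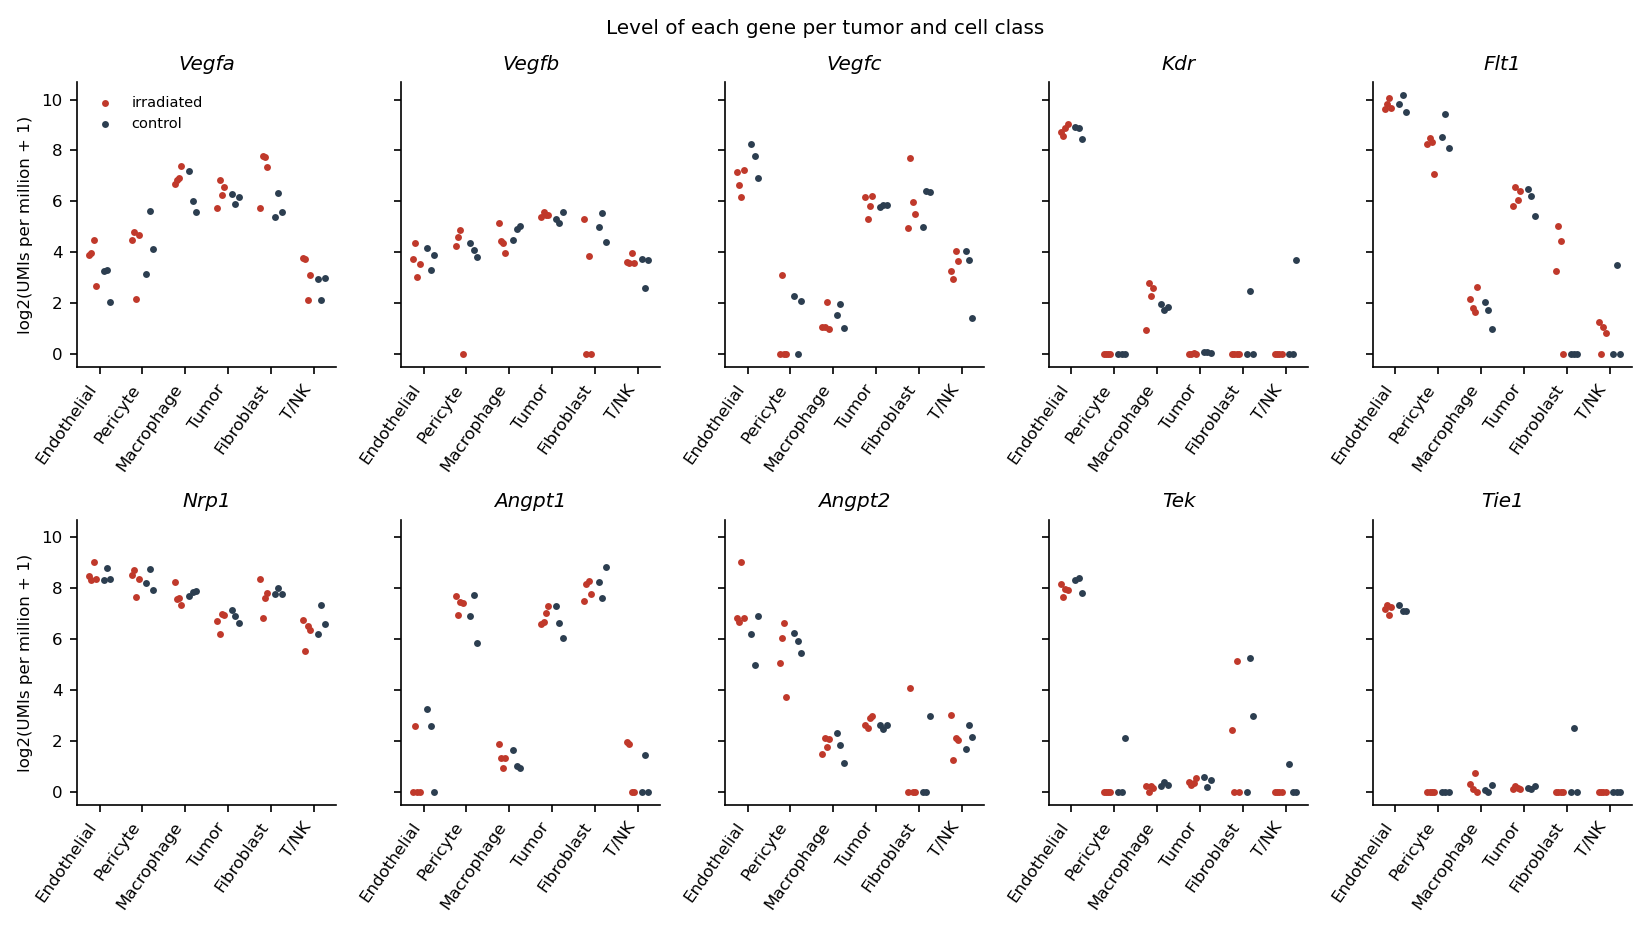
Level of the 10 genes per tumor (1 point each) as log2 of CPM plus 1 in endothelial-like, pericyte-like, macrophage-like, tumor-like, fibroblast-like and T/NK-like cells, irradiated tumors in red and controls in dark blue. Kdr, Tek and Tie1 stood at 123 CPM or more in endothelial-like cells of every tumor, Nrp1 was spread over all classes, and Angpt1 was at most 8.57 CPM in endothelial-like cells.

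Counted over pairs of classes, endothelial-like cells differed from tumor-like cells in all 10 genes, 7 higher and 3 (Vegfa, Vegfb, Angpt1) lower, where 59.2% of 15671 genes tested were called. They differed from macrophage-like cells in 8 of 10 (60.0% of all genes) and from pericyte-like cells in 6 of 10 (31.1%). Pericyte-like cells differed from macrophage-like cells in 6 (55.1%) and from tumor-like cells in 6 (43.2%), and macrophage-like from tumor-like cells in 7, where the background was 81.5%. With so many genes called between classes, a count of calls is no result on the axis, and the sizes above carry the comparison. Leaving TMM scaling out moved the median of all genes by 0.52 for endothelial minus macrophage, 0.50 for pericyte minus macrophage and -0.41 for macrophage minus tumor, and smaller differences than these rest on the scaling.

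Because tumor-like cells were 24.97 to 50.8% of the retained cells and endothelial-like cells 0.897 to 2.07%, the class with the highest level often was not the class with the most transcripts. Tumor-like cells held most UMIs of Angpt1 (79.4, 84.0 and 87.0% at the lowest, median and highest tumor), of Vegfc (72.6, 82.6 and 86.4%), of Vegfb (64.3, 74.2 and 81.2%) and of Flt1 (63.6, 71.2 and 78.9%). The Flt1 of endothelial-like cells, with the highest level of all classes, made up 4.57 to 15.5% of the Flt1 UMIs of a tumor. Vegfa was shared between tumor-like (38.5, 63.8 and 77.9%) and macrophage-like cells (10.5, 21.0 and 49.7%), and Nrp1 likewise (41.5, 57.3 and 63.4%, and 17.2, 25.02 and 43.6%). Endothelial-like cells held the majority of Tie1 in every tumor (58.1, 80.2 and 90.5%) and most of Tek (49.1, 75.4 and 77.8%) and Kdr (43.7, 67.3 and 74.0%). Macrophage-like cells held 2.70, 8.90 and 43.1% of Kdr UMIs, the highest value being in irradiated 2, where 21 endothelial-like cells were retained. Of 15 shares within the 4 classes compared between groups (those with a mean of at least 10%), 0 passed a two-sided exact permutation test with 35 possible splits at an unadjusted p under 0.05 (smallest possible 0.0286). The share of Flt1 in tumor-like cells had the smallest unadjusted p, at 74.7% ± 3.18 (SD, n = 4) after irradiation against 67.5% ± 3.51 (SD, n = 3) (exact permutation p = 0.0571). That difference of 7.15 points was 2.78 points with cluster classes, and the share of Flt1 in cells outside the gates differed by -5.08 points. The share outside the gates had a lower mean after irradiation for every gene. It differed by -8.89 points for Vegfb, -11.6 for Angpt2 and -13.8 for Tie1, each at an unadjusted exact permutation p of 0.0286. The other genes had an exact permutation p of 0.0571 to 0.371. Control 1 had the highest of these 3 shares, at 28.3% for Vegfb, 33.9% for Angpt2 and 34.4% for Tie1. The share outside the gates was not compared over all genes, so its lower mean is no result on the axis. The part of the shares and levels of the classes in it was not tested.

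**Figure D2:**
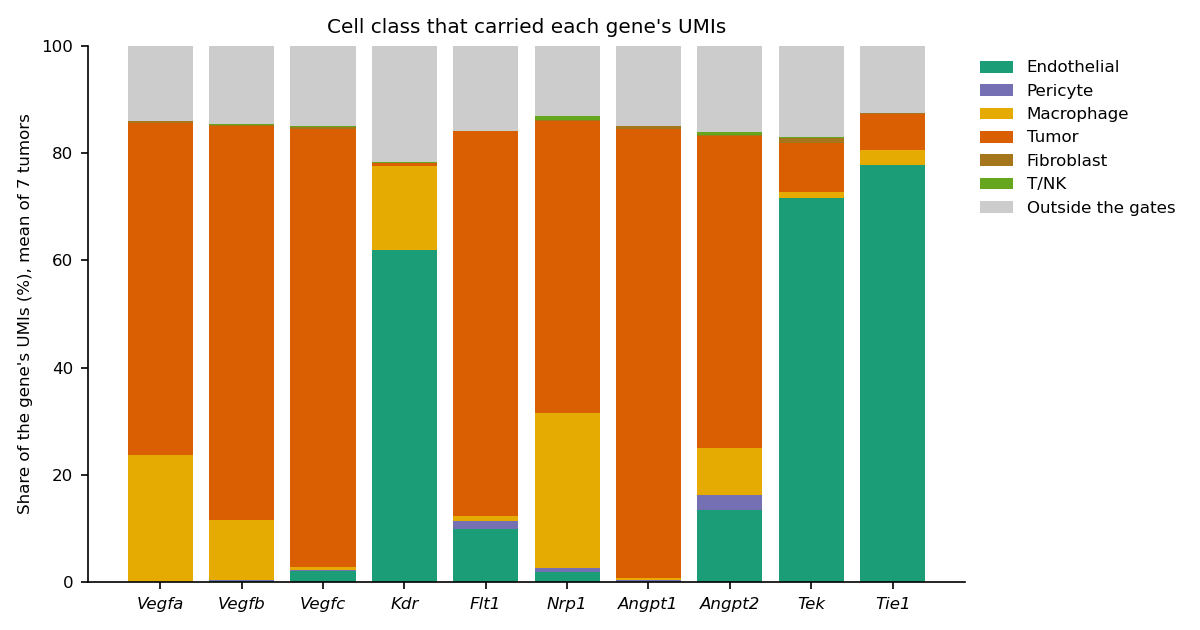
Stacked bars of the percentage of the UMIs of each gene held by each cell class and by cells outside the gates, mean over the 7 tumors. Tumor-like cells held most of Angpt1, Vegfc, Vegfb and Flt1, and endothelial-like cells most of Tie1, Tek and Kdr.

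Within tumor-like and macrophage-like cells, Vegfa was higher where hypoxia genes were high. Nrp1 was lower there, though in macrophage-like cells less so once cells were thinned to equal depth. Cells of each tumor were ranked by a list of 17 hypoxia genes that holds no gene of the axis, and the top quartile was compared with the bottom quartile in the same tumor. The background was high. At an unadjusted exact sign-flip permutation p under 0.05, 74.4% of the 13749 genes tested differed in tumor-like and 38.5% of 9702 in macrophage-like cells, against 6 of 7 and 3 of 4 genes of the axis, so these counts are no result on the axis. Adjusted over all genes, 71.0% passed in tumor-like cells, where the median gene stood at -0.25 on the log2 scale, and 0% in macrophage-like cells. The sizes are therefore given with the share of all genes that lay at least as far in the same direction. Vegfa was higher in the top quartile of tumor-like cells in 7 of 7 tumors, from 40.9, 44.5 and 54.3 CPM (lowest, median, highest) in the bottom quartile to 67.0, 116 and 193 CPM in the top, a mean log2 ratio of 1.36 ± 0.47 (SD, n = 7), matched or passed by 2.23% of genes. The 2 ranges did not overlap. In macrophage-like cells Vegfa went from 40.9, 52.3 and 92.8 CPM to 70.2, 201 and 300 CPM, a log2 ratio of 1.58 ± 0.50 (SD, n = 7), again in 7 of 7 tumors and matched by 0.247% of genes, though the ranges overlapped. Vegfb was higher in the top quartile of tumor-like cells by 0.73 ± 0.10 (SD, n = 7, 11.5% of genes as far), and Flt1 by 0.41 ± 0.41 (20.9%).

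Other members went the opposite way. In the top quartile of tumor-like cells Angpt1 was lower in all 7 tumors, from 120, 177 and 292 CPM to 38.6, 65.4 and 102 CPM (log2 ratio -1.64 ± 0.15, SD, n = 7, 2.09% of genes as far), as were Vegfc (-1.21 ± 0.47, 5.67%) and Nrp1 (-1.18 ± 0.30, 5.98%). Angpt1 in the top quartile of any tumor lay below its bottom quartile in every tumor. In hypoxia-high macrophage-like cells the log2 ratio of Nrp1 was -0.66 ± 0.19 (3.34% of genes as far) and that of Kdr -1.24 ± 0.62 (0.433%), below 0 in all 7 tumors, the latter on a level of 1.00 to 9.51 CPM in the bottom quartile. Each of these 9 comparisons had the smallest p that the two-sided exact sign-flip permutation test allows with n = 7, which is 0.0156. Adjusted over all genes tested, the exact permutation p was 0.0249 for the 6 in tumor-like cells and 0.0626 for the 3 in macrophage-like cells, which did not pass. Angpt2 in tumor-like cells (0.02, exact p = 0.906) and Vegfb in macrophage-like cells (-0.08, exact p = 0.797) showed no such difference. Cells of the top quartile were deeper, at a median of 21102 to 39062.5 against 10145.5 to 23278 UMIs in tumor-like cells and 5812 to 15753 against 2433 to 7890 UMIs in macrophage-like cells. With every cell thinned to 2000 UMIs before scoring, the shares of all genes fell to 32.1% and 12.8% at an unadjusted p under 0.05, and no gene passed after adjustment (exact permutation, adjusted p = 0.0796 for Vegfa in tumor-like and 0.265 in macrophage-like cells). The thinned ratios of Vegfa were 1.40 and 1.66, with 7 of 7 tumors above 0 in both classes. Flt1 in tumor-like cells (0.35) and Kdr in macrophage-like cells (-0.95) had an exact permutation p of 0.0625 there. In tumor-like cells the ratio of Angpt1 shrank from -1.64 to -1.06 with thinning, and that of Vegfc from -1.21 to -0.87. Both stayed below 0 in every tumor. Thinned Nrp1 was -0.84 in tumor-like cells, below 0 in every tumor. In macrophage-like cells it shrank to -0.28, below 0 in all tumors but 1, with 17.2% of genes as far (exact permutation p = 0.03125). The part of depth was not tested beyond this.

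**Figure D3:**
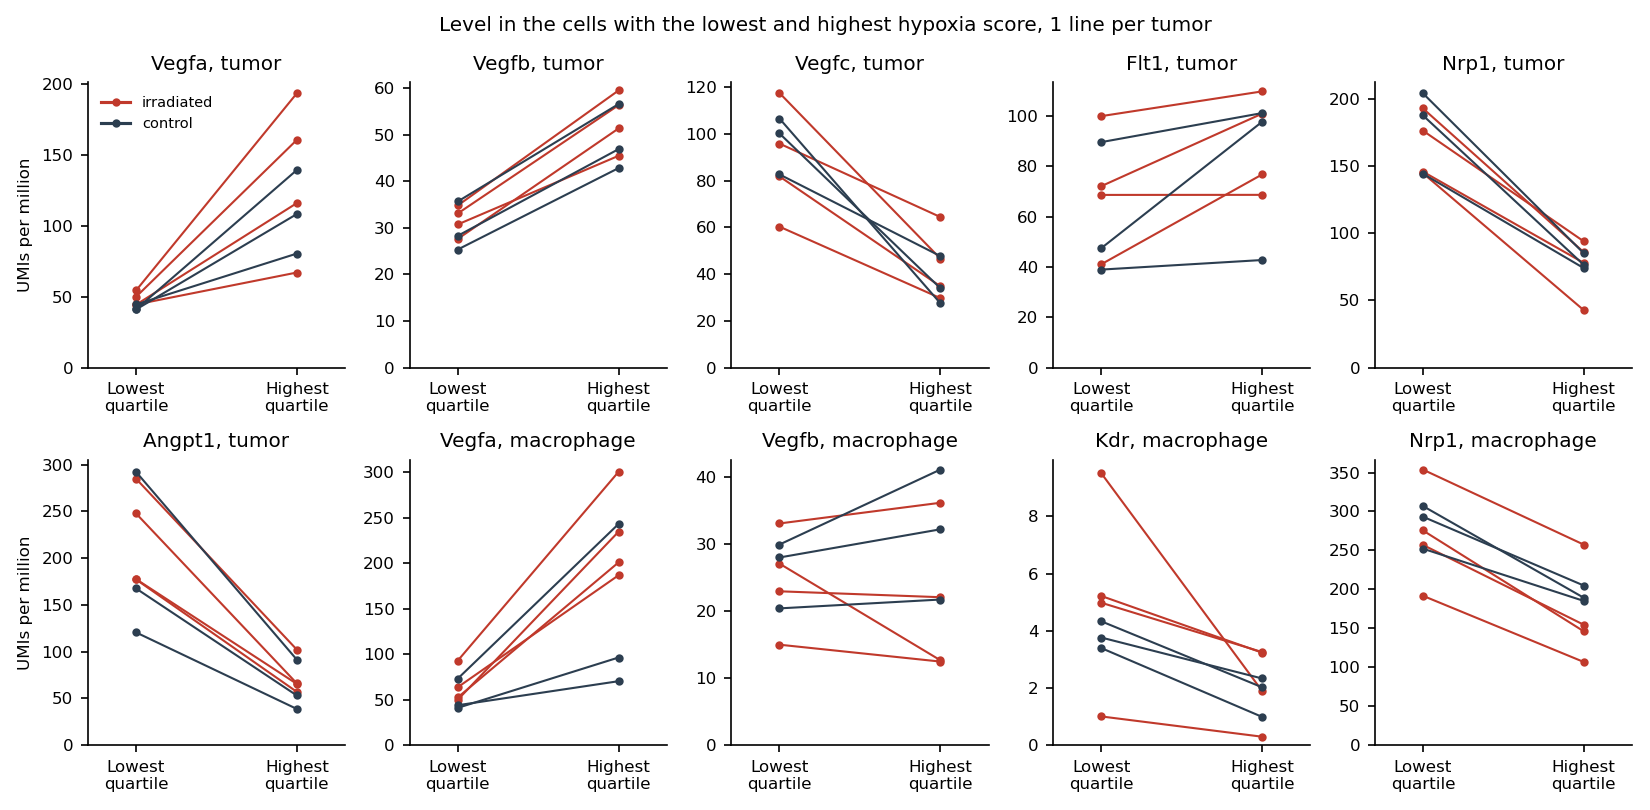
Level (CPM) of genes of the axis in the quartiles of cells lowest and highest on the hypoxia list, 1 line per tumor, in tumor-like and macrophage-like cells, irradiated in red and control in dark blue. Vegfa rose and Angpt1 fell along all 7 lines in tumor-like cells.

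Inside a class the genes were not even. As a description, tumor-like clusters of over 500 cells, made without the genes of the axis, ranged from 15.0 to 306 CPM in Angpt1 (highest in the clusters led by Apol7a, 306 CPM, and Col2a1, 257 CPM), from 7.39 CPM (Wif1) to 109 CPM (Apol7a, 31.2 to 203 CPM over tumors) in Flt1, and from 13.5 CPM (Crabp1) to 191 CPM (Wif1) in Vegfc. The Wif1-led cluster, with the highest Vegfc and the lowest Flt1, was found in 3 tumors with at least 20 cells. Among macrophage-like cells, the 338 cells of a cluster led by F630028O10Rik had the highest Nrp1 (625 CPM) and the lowest Vegfa (7.62 CPM), and the 3739 cells of a cluster led by Slfn4 had 148 CPM of Vegfa and 167 CPM of Nrp1. By marker subgroup, pooled over tumors, Vegfa was 244 CPM (95% exact Poisson interval 206 to 286) in 82 inflammatory and 90.9 CPM (88.3 to 93.5) in 6914 resident-type macrophages, and the former was above the latter in 7 of 7 tumors. The pooled 142 CPM (126 to 160) of 302 monocyte-type cells gave no such order, since they stood above resident-type cells in 4 of 7 tumors, and irradiated 4 alone gave 97 of them. Nrp1 was highest in resident-type cells at 273 CPM, above each of the other subgroups in every tumor. Kdr reached 19.1 CPM (11.7 to 29.5) in 142 Cxcl9-type and 10.3 CPM (6.30 to 15.9) in 302 monocyte-type cells, against 1.89 CPM in resident-type cells, which were exceeded in 7 and 6 of 7 tumors. These intervals cover counting error only, and cells of 1 tumor are not replicates. A tumor held 5 to 25 inflammatory cells, at least 20 in 1 tumor, and 12 to 37 Cxcl9-type cells, at least 20 in 2 tumors. Kdr of Cxcl9-type cells came from 20 UMIs in all, so these orders within tumors rest on few cells.

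Endothelial-like cells could be sorted by markers of vessel type only in small numbers. In 25 artery-type cells Vegfc was 752 CPM (558 to 992) and Flt1 1143 CPM (901 to 1431), and Angpt2 had 1 UMI. In 95 vein-type cells Vegfc was 267 CPM and in 24 capillary-type cells 26.5 CPM (3.21 to 95.7). The 22 tip-type cells had the highest Nrp1 (641 CPM, 503 to 805) and Angpt2 (217 CPM, 140 to 320), but 1 cell held 40.0% of those Angpt2 UMIs. Of the tip, artery, vein and capillary types, tip-type cells also had the lowest Kdr (303 CPM, 211 to 422) and Flt1 (442 CPM, 329 to 581). The same held for Tek (113 CPM, 60.0 to 193) and Tie1 (86.6 CPM, 41.5 to 159). The Kdr and Tie1 intervals overlapped those of each other type, and the Flt1 interval overlapped that of capillary-type cells. In tip-type cells 1 cell held 39.2% of the Flt1 UMIs, and 1 cell held 53.8% of the Tek UMIs. Prox1, the lymphatic regulator, was found in 4.55% of endothelial-like cells.

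Irradiation was compared with control for every gene of the axis within each class, the question being whether 5 fractions of 2 Gy left a mark on it by day 21. No gene of the axis was called. In edgeR, 0 of 7 genes tested passed in endothelial-like, 0 of 4 in pericyte-like (irradiated 4, with 10 cells, was left out), 0 of 8 in macrophage-like and 0 of 8 in tumor-like cells, against 0% of the 7653, 5009, 12913 and 17374 genes tested. At an unadjusted p under 0.05, 1 gene of the axis (Vegfc, in endothelial-like cells) and 291, 136, 728 and 210 of all genes passed, and the DESeq2 Wald test called 3, 0, 5 and 0 genes, none of the axis. The p-values measure the spread between tumors. The endothelial receptors lay close together in both groups. Kdr was 420, 379, 474 and 523 CPM in irradiated and 482, 476 and 349 CPM in control endothelial-like cells (log2 difference 0.02, SE 0.19), and Tie1 was 142, 160, 123 and 153 CPM against 159, 137 and 134 CPM (-0.02, SE 0.19). The groups overlapped for both, and likewise for Flt1 (-0.07, SE 0.19), Nrp1 (0.05, SE 0.22) and Tek (-0.27, SE 0.20). For Kdr the 95% interval of the log2 difference ran from -0.35 to 0.40 on a normal approximation.

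Vegfc and Angpt2 of endothelial-like cells had the largest differences. Vegfc was 142, 99.7, 71.1 and 148 CPM in irradiated 1 to 4 and 303, 218 and 120 CPM in controls 1 to 3, a mean of 115 ± 36.3 (SD, n = 4) against 214 ± 91.6 (SD, n = 3). Control 3 lay within the irradiated values. The log2 difference was -0.89 (SE 0.32, edgeR adjusted p = 1.00). It was called with no count filter (-0.92, adjusted p = 0.0243, range over the alternatives 0.0243 to 1.00), where 82 of 17995 genes were called. Within set 1 the level was 142 against a mean of 169 CPM and within set 2 a mean of 106 against 303 CPM. Angpt2 was 111, 99.7, 512 and 113 CPM in irradiated and 72.0, 30.4 and 118 CPM in control tumors, with control 3 above all irradiated tumors but irradiated 3 (log2 difference 1.49, SE 0.80, edgeR adjusted p = 1.00). Of the 216 Angpt2 UMIs of irradiated 3, 142 (65.7%) came from 1 of 41 cells. Without the cell with the most Angpt2 UMIs in each tumor, the levels were 97.3, 74.8, 175 and 80.5 CPM against 53.1, 26.6 and 87.3 CPM. Markers of vessel type stood beside these differences. All 6 tip markers and all 4 capillary markers had a higher mean in irradiated endothelial-like cells, with the tip list summing to 658 to 2386 CPM against 595 to 983 CPM and the capillary list to 668 to 1599 CPM against 526 to 794 CPM. All 4 vein markers and all 5 lymphatic markers had a lower one, at 832 to 1431 against 1061 to 1332 CPM and 29.9 to 77.9 against 38.0 to 508 CPM, and 3 of 5 artery markers did. The tip sum of 2386 CPM was that of irradiated 3, the tumor highest in Angpt2. Irradiated 1, 2 and 4 stood at 1136, 658 and 1092 CPM. The lymphatic difference rested on control 3, since controls 1 and 2 stood at 44.6 and 38.0 CPM, and its marker Ccl21a was found in 1.04% of endothelial-like cells. Over all genes tested in endothelial-like cells the median log2 difference was -0.00125. The sums overlapped between the groups for each list, and their part in Vegfc and Angpt2 was not tested.

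Vegfa of macrophage-like cells was 103, 112, 119 and 169 CPM in irradiated and 146, 63.1 and 47.6 CPM in control tumors. Control 1 lay above 3 of the 4 irradiated tumors (log2 difference 0.55, SE 0.37, edgeR adjusted p = 0.821). Within set 1 the level was 103 against a mean of 55.4 CPM, and within set 2 a mean of 133 against 146 CPM. The hypoxia list summed to 1556, 2016, 2109 and 2299 CPM in irradiated and 2097, 1570 and 1467 CPM in control macrophage-like cells, and the 3 tumors lowest on it (control 3, irradiated 1 and control 2) were the 3 lowest in Vegfa. These 3 tumors are technical set 1. The part of the list or the set was not tested. In tumor-like cells Vegfa was 52.8, 115, 76.0 and 92.6 CPM against 77.7, 58.3 and 71.9 CPM (0.22, SE 0.24), and Angpt1 95.3, 100, 128 and 158 CPM against 157, 97.6 and 64.9 CPM (0.14, SE 0.24). Both overlapped between groups. Kdr of macrophage-like cells was 0.936, 6.03, 3.85 and 5.13 CPM in irradiated and 2.93, 2.38 and 2.60 CPM in control tumors (0.58, SE 0.50, adjusted p = 0.847), with irradiated 1 below and the other 3 above every control. Within set 1 it was 0.936 against a mean of 2.49 CPM and within set 2 a mean of 5.01 against 2.93 CPM. Flt1 of pericyte-like cells was 307, 362, 320 and 134 CPM against 371, 682 and 271 CPM (-0.41, SE 0.31, edgeR adjusted p = 0.999, fitted without irradiated 4).

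**Figure D4:**
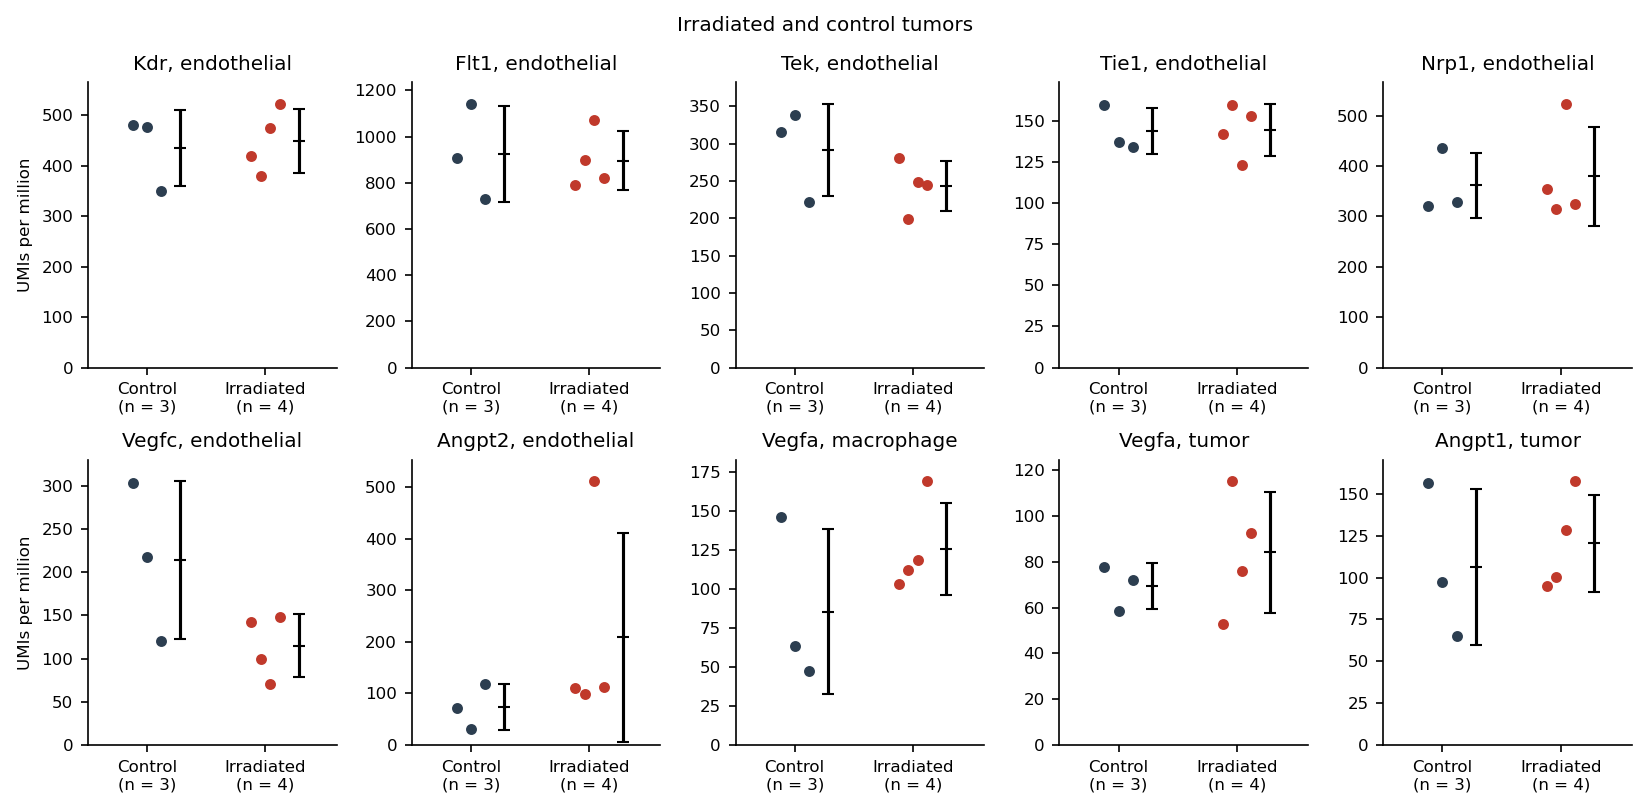
Level (CPM) of genes of the axis in the class named on each panel, control (3 tumors) and irradiated (4 tumors), with 1 point per tumor and a bar at the mean with its SD. The ranges of the groups overlap in every panel, and 1 irradiated tumor stands at 512 CPM of Angpt2.

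Over all retained cells of a tumor, Tek was 2.50, 1.11, 1.83 and 2.34 CPM in irradiated and 2.56, 4.23 and 2.63 CPM in control tumors. Irradiated 1 (2.50 CPM) and control 1 (2.56 CPM) lay close together. The log2 difference of Tek between the groups was -0.76 (SE 0.32) with an edgeR adjusted p of 0.966, and 0 of 10 genes of the axis and 0% of 19560 genes passed (431 genes at an unadjusted p under 0.05, 0 in DESeq2). The differences of Tie1 (-0.53, SE 0.27), Kdr (-0.18, SE 0.29) and Flt1 (-0.11, SE 0.18) did not pass either (edgeR adjusted p = 0.966, 0.967 and 0.967). Such sums cannot part fewer endothelial cells from less RNA per cell. Within set 1 Tek was 2.50 against a mean of 3.43 CPM and within set 2 a mean of 1.76 against 2.56 CPM. The endothelial-like share of the retained cells was 1.10% ± 0.175 (SD, n = 4) after irradiation and 1.58% ± 0.470 (SD, n = 3) without it, differing by -0.482 percentage points (two-sided exact permutation p = 0.114, smallest possible 0.0286). Within the technical sets the difference was -0.629 and -0.0619 points. With cells classed by cluster in place of gates it was -0.848 points (exact permutation p = 0.0286, where the alternatives ran from 0.0286 to 0.333).

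Whether irradiation acted on the axis differently in different classes was tested as an interaction. None of the 10 genes was called in any of the 4 differences between classes in edgeR, where 0% of 15671 genes (macrophage minus endothelial, pericyte minus endothelial) or 0.00638% (tumor minus endothelial, tumor minus macrophage) were called. At an unadjusted p under 0.05 these gave 0, 1, 1 and 0 genes of the axis for macrophage, tumor and pericyte minus endothelial and tumor minus macrophage, of 730, 677, 818 and 688 genes in all. DESeq2 was not run on them. Vegfa, for tumor minus macrophage, had a difference of -0.47 (SE 0.42, edgeR adjusted p = 1.00).

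Around the axis, a list of 36 related genes (other VEGF and angiopoietin family members, receptor signaling, tip cell and VEGF target genes, class 3 semaphorins, anti-angiogenic genes and oxygen sensors) was read in the same fits. Of them 26, 14, 25 and 32 were tested in endothelial-like, pericyte-like, macrophage-like and tumor-like cells and 0 were called in each, with 3, 0, 1 and 2 at an unadjusted p under 0.05. Their median log2 difference was 0.13, 0.18, -0.11 and 0.01, beside medians near 0 over all genes. In endothelial-like cells the highest levels were those of Ptprb, the phosphatase that restrains Tek (1069 CPM ± 265, SD, n = 7), of Hif1a (501 ± 49.1) and of Epas1, the endothelial hypoxia-inducible factor (448 ± 104). Esm1, a tip cell gene induced by VEGF, was 62.6, 165, 559 and 69.8 CPM in irradiated and 42.8, 46.9 and 27.7 CPM in control tumors (log2 difference 2.44, SE 0.95, edgeR adjusted p = 1.00). The placental ligand Pgf had a difference of 1.58 (SE 0.82, adjusted p = 1.00). As with Angpt2, irradiated 3 was highest for Esm1.

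In macrophage-like cells the anti-angiogenic Thbs1 (290 CPM ± 57.8, SD, n = 7), the chemokine receptor Cxcr4 (222 ± 30.7) and Hif1a (190 ± 44.7) led the list. Nrp2, the sister of Nrp1, was 65.3, 54.5, 80.2 and 50.8 CPM in irradiated and 90.0, 102 and 68.9 CPM in control macrophage-like cells (log2 difference -0.50, SE 0.18, edgeR adjusted p = 0.819), and the adaptor Dok2 differed by 0.39 (SE 0.21). Pericyte-like cells were led by Epas1 (681 ± 142), the protease Adamts1 (488 ± 119) and Hif1a (290 ± 33.9), with Angptl4 at 0.79 (SE 0.76) and Thbs2 at 0.59 (SE 0.43) between groups. In tumor-like cells the semaphorin Sema3a, a Nrp1 ligand, was highest (361 CPM ± 61.5, SD, n = 7), before Nrp2 (235 ± 44.2) and Hif1a (186 ± 36.4), and Angptl4 (0.47, SE 0.55) and Thbs1 (-0.42, SE 0.26) differed most between groups without passing the test. Between classes, 20 of 34 list genes tested were higher and 5 lower in endothelial-like than in pericyte-like cells, 24 and 6 against macrophage-like cells, and 22 and 9 against tumor-like cells, where 31.1%, 60.0% and 59.2% of all genes were called. As for the axis, such counts are no result on the list.

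Across the 27 sums of class and tumor, the genes with the pattern most like each gene of the axis were ranked by Pearson's r of log2 CPM, as a description over sums that share libraries and classes. Kdr was most like Icam2 (r = 0.990), Rasgrf2 and Vwf. Tek was closest to Adgrl4 (0.989), Thsd1 and Nos3, and Tie1 to Nos3 (0.978), Adgrg1 and Gm32688. Flt1 was closest to Heg1 (0.984), Sptbn1 and Zfp423, and Nrp1 less tightly to Spats2l (0.918), Gstt2 and Rtl8a. Angpt1 was closest to Ddr2 (0.982), Enox1 and Plekhh2, Angpt2 to Mmp15 (0.959), Grk5 and Esam, and Vegfc to Aqp1 (0.971), Cd34 and Ica1. The widely made ligands had looser partners, Celf2 (0.891), Lamtor4 and Rab11fip1 for Vegfa and Enpp1 (0.875), Nrg1 and Igfbp6 for Vegfb.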

How the data were processed

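Dissociated tumors of 4 irradiated and 3 control mice were sequenced and counted by the authors. The file headers name Cell Ranger 8.0.0, and the deposited matrices give the UMI count of every gene in each called cell. The methods name mm10, an earlier Cell Ranger and Seurat 4.4. Whether intronic reads were counted is not given in the sources used here.

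Cells beyond 3 median absolute deviations of the median of their library in UMIs, genes, mitochondrial or ribosomal share were removed. Classes were gated on marker number, with at least 5 endothelial, 5 pericyte, 9 macrophage, 5 tumor, 5 fibroblast or 4 T/NK markers and limits on the other lists and, because the hosts were female and the line male, with Xist absent from tumor-like and present in fibroblast-like cells. Scrublet doublets were called and kept. Counts were summed per tumor and class (20 cells or more) and tested two-sided with edgeR 4.0.16 (quasi-likelihood, TMM, filterByExpr, R 4.3.3) over all genes, with Benjamini-Hochberg adjustment and a threshold of 0.05. Class comparisons had the tumor as a block. They left out the 10 pericyte-like cells of irradiated 4, which the printed ranges of levels include. The fit was tested on simulated data. Shares used exact permutation of the tumors, and quartiles exact sign flips over the tumors, run on all genes with a mean of 10 UMIs or more in the bottom quartile and adjusted over them. A count of 0 was given a floor of 3 UMIs. Intervals are 95% Wilson or exact Poisson, and these and the floors cover counting error only.

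All 10 genes are reported in every class. From the list of 36 related genes, those called, the 3 highest and the 2 with the largest change at 10 CPM or more are named in each class, and the 3 genes most like each member by Pearson's r. The members and lists were chosen with earlier results of these data known. Alternatives were DESeq2 1.42.0, other scalings, no count filter, the replicate number or technical set as a term, Leiden clusters (scanpy 1.11.5), stricter gates, all deposited cells, doublets removed and each tumor left out.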

Additional observations from a re-analysis of the deposited data

Results flagged for a closer look

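Of 42 groups of 4 irradiated values examined, 3 held a tumor far from the other tumors of its group by Dixon's test, which chance alone passes in about 1 in 20 groups. Angpt2 of endothelial-like cells stood at 512 CPM in irradiated 3, where 1 cell held most of the UMIs. Vegfc of macrophage-like cells stood at 3.11 CPM in irradiated 3, from 38 UMIs, of which 13 lay in 1 cell. The share of Vegfa UMIs in macrophage-like cells stood at 49.7% in irradiated 4.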

How the results depend on the processing

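Among the group comparisons, counts of calls in the axis stayed at 0 under every alternative but 1, since with no count filter 1 gene (Vegfc) was called in endothelial-like cells. The replicate numbers shared by the groups did not pair the tumors (correlation of deviations of same-numbered tumors -0.37 to 0.12), and with the replicate block the group comparisons called 0 genes of the axis in each class and in the whole tumor. The difference in the share of endothelial-like cells was -0.848 points with cluster classes. Small differences changed sign. For irradiated minus control in endothelial-like cells, Kdr was -0.023 with no count filter, -0.043 with the replicate block and -0.047 with the technical set as a term, and Flt1 and Tie1 were both 0.16 with cluster classes. With the technical set as a term, Kdr of macrophage-like cells was -0.024, and Angpt1 and Flt1 of tumor-like cells were -0.046 and -0.078. Angpt1 for endothelial minus macrophage was -1.87 with a stricter gate and 2.61, and called, with cluster classes, and with a stricter gate Nrp1 was -0.16 for pericyte minus macrophage.

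Leaving out 1 tumor at a time, irradiated minus control ran in endothelial-like cells from -0.12 to 0.10 for Kdr, -0.22 to 0.10 for Flt1, -0.073 to 0.055 for Tie1 and -0.15 to 0.20 for Nrp1. It ran in tumor-like cells from -0.014 to 0.35 for Vegfa, -0.083 to 0.45 for Angpt1 and -0.11 to 0.27 for Flt1, and in pericyte-like cells from -0.66 to 0.012 for Flt1. Between classes, Angpt1 ran from -0.41 to 0.69 for endothelial minus macrophage and Nrp1 from -0.094 to 0.13 for pericyte minus macrophage. Between hypoxia quartiles, Angpt2 of tumor-like cells ran from -0.089 to 0.12 and Vegfb of macrophage-like cells from -0.17 to 0.087. Of the differences between classes in 48 results with at least 10 UMIs in both classes, 653 of 672 alternatives kept the direction and the call, 4 lost it, 9 gained it and 6 changed sign. Those lost were Vegfa for macrophage minus tumor without TMM, and Vegfb for pericyte minus macrophage without TMM, with DESeq2 size factors and without control 3. Those gained were Nrp1 for endothelial minus macrophage (0.78 without TMM, 0.45 with DESeq2 size factors) and pericyte minus macrophage (0.56 without TMM), that of Angpt1, Angpt2 for endothelial minus pericyte (1.37 without control 2), and, for macrophage minus tumor, Angpt2 (-1.06 without TMM, -0.55 without irradiated 3) and Tek (-0.98 without TMM, -0.92 without control 2). The causes were not tested. The depth of 21 to 154 endothelial-like cells per tumor limits what can be seen there.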

Other observations

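Fibroblast-like cells, 123 in all and too few for a test, held ligands and Nrp1 of the axis. Angpt1 was 177 to 449 CPM over the 7 tumors and was found in 31.0% of 116 cells thinned to 2000 UMIs (95% Wilson interval 23.3 to 40.0%). Vegfc, at 30.3 to 206 CPM, was found in 11.2% of them (6.67 to 18.2%), and Nrp1 in 42.2% (33.6 to 51.3%). Of the other receptors, Tek had 15 UMIs and was found in 8.94% of unthinned cells, Flt1 had 7 UMIs, and Kdr and Tie1 had 1 UMI each, from control 2.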
